A study of Mus musculus with 16 samples.

Results

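The immediate early AP-1 genes described here are 9 genes, Fos, Fosb, Fosl2, Jun, Junb, Jund, Ier2, Atf3 and Dusp1. They were taken by symbol from both count tables of the series, which hold 24984 genes for DP thymocytes and 24974 for CD8 thymocytes, and all 9 were present in each. DP thymocytes carry both CD4 and CD8 and make up most of the thymus, and CD8 thymocytes are a later stage that has lost CD4. PolyA RNA of sorted cells was sequenced with strand-specific libraries in 16 samples of 4 groups, to ask what the loss of the HMG-box protein Tox4 does to transcription during T cell development. DP cells were sorted on a FACSAria, and CD8 cells were sorted as TCRβ+ CD8+ thymocytes.

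Control mice had the genotype Tox4;F/F in both cell types, with loxP sites on either side of exons 4 to 6 of Tox4 and no Cre (3 DP and 5 CD8 libraries). Conditional knockout (cKO) mice were Tox4;F/F;Lck+ in DP (3 libraries) and Tox4;F/F;Lck-cre in CD8 (5 libraries). Their Cre was driven by the proximal promoter of Lck, so that deletion began at the DN3 stage, ahead of both sorted stages. The mice were C57BL/6, gender-matched littermates 6 to 8 weeks old. The labels do not say whether each library came from a separate animal, and the controls carried no Cre transgene, so that Cre itself and the loss of Tox4 cannot be told apart.

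AP-1 is a family of leucine zipper transcription factors that bind DNA as pairs. Fos proteins pair with Jun proteins and cannot pair with themselves, whereas Jun proteins can. Their genes are called immediate early because a signal such as antigen receptor engagement, a growth factor or stress raises their transcription within minutes and with no need for new protein, and their short-lived mRNAs then decay. In thymocytes the antigen receptor reaches them through the MAP kinases ERK, JNK and p38, which Dusp1 in turn dephosphorylates.

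Total counts were 14583336 to 25981683 in the 6 DP libraries and 8514135 to 13530783 in the 10 CD8 libraries. Levels are given as CPM, counts scaled to library size and normalised by TMM over all 16 libraries, or as TPM where genes are compared, since TPM also divides by exonic length. Tox4 itself was measured at 163 ± 13.0 CPM in DP control and 131 ± 3.40 CPM in DP cKO (SD, n = 3 each). Every DP cKO library lay below every DP control, yet the difference did not pass the test (log2 fold change −0.32, SE 0.11, edgeR adjusted p = 0.381). In CD8 it was measured at 197 ± 9.81 CPM in control and 189 ± 28.1 CPM in cKO (SD, n = 5 each). The CD8 groups did not differ in the test (log2 fold change −0.056, SE 0.098, edgeR adjusted p = 0.979). The library labelled cKO replicate 4 of CD8 held 237 CPM of Tox4, above all 5 controls (183 to 207 CPM), whereas 3 of the 5 CD8 cKO libraries lay below all controls. The columns of the CD8 table were matched to the sample titles by genotype word and replicate number, and the CD8 groups rest on that match. The counts sum reads over the whole gene and do not isolate the deleted exons. The Tox4 level of the library labelled cKO replicate 4 therefore does not settle whether its label is right.

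Further libraries stood apart. CD8 control replicate 1 had counts in 17741 genes against 13708 to 14194 in the other controls, and CD8 cKO replicate 1 had counts in 15054. In DP, control replicate 1 and cKO replicate 1 deviated alike from their own groups. Over all genes tested these deviations from the group means correlated at 0.64, a value over genes, which are not independent replicates. Both samples numbered 1 lay below the other 4 DP samples for 1980 genes and above them for 1998 of 11744. The library labelled CD8 cKO replicate 4 lay above the other 9 CD8 libraries for 1802 of 11227 genes and below them for 1904. Log2 fold changes and SDs of members that rest on these libraries are given with and without them. Orders by TPM, summed TPM and correlations with the members are given with all libraries only.

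Markers were checked against the sorted cell types. All 9 listed DP markers were detected in every DP library with a summed level of 13940 to 18181 CPM, led by Rag1, and the same list summed to 2182 to 2757 CPM in CD8, where Cd8a led. All 8 listed markers of mature single-positive cells were detected in every library, at 297 to 369 CPM in DP and 2793 to 5127 CPM in CD8. In DP every cKO library lay below all controls for this sum. In CD8 it was 2793 to 3266 CPM in replicates 1 and 2 of both genotypes and 3640 to 5127 CPM in the others. Of these markers Klf2 and Cd69 also belong to the list of other rapid response genes described below. Both CD4 lineage markers were detected in every library, and their sum in CD8 was 66.4 to 80.2 CPM in replicates 1 and 2 of both genotypes against 5.37 to 14.1 CPM in the other 6 libraries, with Cd4 the more abundant. In bulk samples fewer cells of a type and less RNA per cell cannot be told apart. All 6 B cell markers were detected in every library at a sum of 17.2 to 30.8 CPM in DP and 8.57 to 40.7 CPM in CD8, with Cd79b leading in DP and in 9 CD8 libraries and Pax5 in CD8 control replicate 1. All 15 phagocyte and granulocyte markers were detected in DP at 60.9 to 195 CPM, and 9 to 13 of them in CD8 at 39.4 to 99.2 CPM, with Cd74 leading throughout, and S100a9 was at 0 in all 10 CD8 libraries. Of 12 stromal, endothelial and epithelial markers 5 to 12 were detected per library, Pecam1 made up most of their sum of 148 to 307 CPM, and the epithelial factor Foxn1 was at 0 in all 6 DP libraries. Of 7 erythroid markers at most 2 were detected, all globin genes were at 0 and the sum did not exceed 0.399 CPM. Whether admixed cells had a part in the results was not tested.

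The members lie on 7 chromosomes of GRCm38. Fos spans chr12:85473890-85477274 on the plus strand, Fosb chr7:19302696-19310045 on the minus strand and Fosl2 chr5:32136472-32157839 on the plus strand, each in 4 exonic blocks. Jun (chr4:95049036-95052222, minus), Junb (chr8:84976909-84978748, minus), Jund (chr8:70697739-70700616, plus) and Ier2 (chr8:84661331-84662852, minus) each form 1 exonic block, so that no intron interrupts their transcripts. Atf3 (chr1:191170297-191183333, minus) and Dusp1 (chr17:26505591-26508472, minus) have 4 blocks each.

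Promoter windows of 300 bases, from 250 before to 50 after the annotated start, were read from RefSeq (GRCm38.p6) for 8 of the 9 members. Ier2 was missing from the promoter file that was used. Shown are 5 members whose windows illustrate the motifs, Fos at chr12:85473640-85473939 on the plus strand, Fosb at chr7:19309996-19310295 on the minus strand, Jun at chr4:95052173-95052472 on the minus strand, Junb at chr8:84978699-84978998 on the minus strand and Dusp1 at chr17:26508423-26508722 on the minus strand. Fosl2, the member with the largest difference between the cell types, is shown beside them, at chr5:32136222-32136521 on the plus strand. Each is written 5′ to 3′ on the strand of its gene, and capitals mark every match of TGACG, TGACGTCA, TGANNTCA or TATAAA on either strand.
Fos: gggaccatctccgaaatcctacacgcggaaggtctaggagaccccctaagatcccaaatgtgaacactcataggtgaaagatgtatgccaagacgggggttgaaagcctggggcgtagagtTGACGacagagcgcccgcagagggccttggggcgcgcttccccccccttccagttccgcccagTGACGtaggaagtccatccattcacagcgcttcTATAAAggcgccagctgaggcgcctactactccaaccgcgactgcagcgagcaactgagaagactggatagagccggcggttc
Fosb: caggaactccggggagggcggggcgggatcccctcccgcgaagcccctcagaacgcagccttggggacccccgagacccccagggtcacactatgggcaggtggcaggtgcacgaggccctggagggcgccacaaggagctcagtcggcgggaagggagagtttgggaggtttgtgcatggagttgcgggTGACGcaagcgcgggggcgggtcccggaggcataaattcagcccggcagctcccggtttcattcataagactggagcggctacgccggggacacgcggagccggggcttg
Jun: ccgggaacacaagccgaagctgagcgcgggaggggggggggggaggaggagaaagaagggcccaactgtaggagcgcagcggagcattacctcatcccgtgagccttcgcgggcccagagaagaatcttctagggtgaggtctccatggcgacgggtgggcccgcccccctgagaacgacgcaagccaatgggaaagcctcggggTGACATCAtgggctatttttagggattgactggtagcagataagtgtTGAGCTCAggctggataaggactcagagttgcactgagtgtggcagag
Junb: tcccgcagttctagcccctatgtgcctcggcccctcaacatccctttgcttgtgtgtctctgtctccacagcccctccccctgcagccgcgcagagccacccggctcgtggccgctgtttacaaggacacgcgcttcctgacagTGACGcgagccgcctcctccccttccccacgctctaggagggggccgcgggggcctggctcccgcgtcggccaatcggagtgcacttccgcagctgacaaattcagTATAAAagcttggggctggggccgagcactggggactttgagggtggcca
Dusp1: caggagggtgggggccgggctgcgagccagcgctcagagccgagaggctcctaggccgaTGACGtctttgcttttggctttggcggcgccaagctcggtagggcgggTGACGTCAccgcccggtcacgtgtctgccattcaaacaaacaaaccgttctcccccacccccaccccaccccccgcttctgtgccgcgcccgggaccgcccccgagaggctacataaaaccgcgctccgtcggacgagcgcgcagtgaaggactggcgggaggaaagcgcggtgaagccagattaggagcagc
Fosl2: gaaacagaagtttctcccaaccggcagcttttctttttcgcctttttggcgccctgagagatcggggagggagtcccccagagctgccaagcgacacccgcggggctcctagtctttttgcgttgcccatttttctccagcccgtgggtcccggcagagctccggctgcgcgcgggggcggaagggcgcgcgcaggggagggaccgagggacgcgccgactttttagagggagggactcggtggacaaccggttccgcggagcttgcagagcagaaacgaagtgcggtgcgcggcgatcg

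Members were searched on both strands for 7 motifs. TGACGTCA, the cAMP response element, was found in 1 of 8 member windows, that of Dusp1, and in 1.79% of all 32851 promoter windows. Its shorter core TGACG, which TGACGTCA contains on both strands, was found in 5 of 8 (Fos, Fosb, Junb, Atf3 and Dusp1) against 20.8% of all windows. TGANNTCA, which TGACGTCA also matches, was found in 3 of 8 (Jun, Jund and Dusp1) against 14.1%. Jun carried it at −45 and at 3 relative to the annotated start. TGANTCA, the AP-1 site, was found in 0 of 8 member windows against 7.81%. TATAAA was found in 2 of 8 against 13.6%, at −33 in Fos and at 1 in Junb. GGGCGG was found in 6 of 8 against 35.7%, and the CArG box, the element bound by SRF, in 0 of 8 against 1.63%. Fosl2 held no capitals, since its window matched only GGGCGG. A match is a description of these letters and a missing match speaks only of this window.

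**Figure D1:**
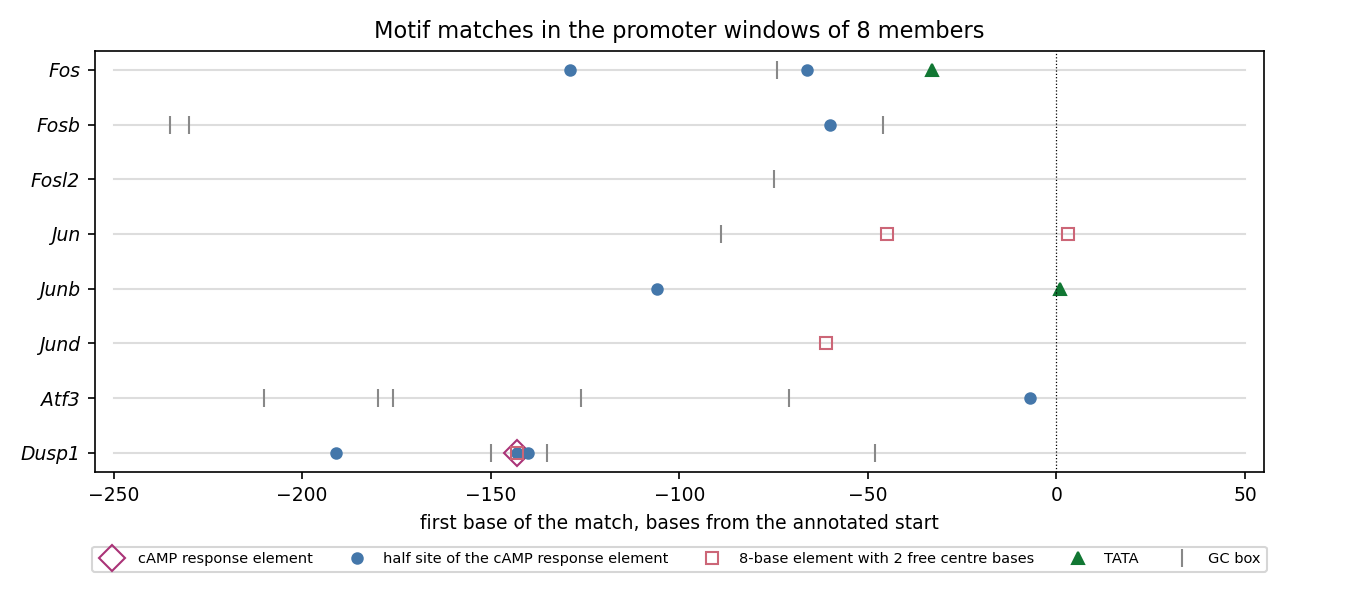
Motif matches in the promoter windows of 8 members, plotted as the distance in bases of the first base of each match from the annotated start (x axis), with 1 line per gene and 1 symbol per motif. Dusp1 alone among them holds TGACGTCA, and the window of Fosl2 holds only a GC box.

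In DP controls the order of mean TPM ran Jun 332, Junb 316, Jund 242, Dusp1 216, Fos 148, Ier2 97.6, Fosb 25.4, Fosl2 2.89 and Atf3 0.484. Only the last steps of that order, from Ier2 to Fosb, from Fosb to Fosl2 and from Fosl2 to Atf3, separated genes whose ranges over the 3 libraries did not overlap. In DP cKO the order by TPM was Jund 279, Jun 272, Junb 221, Dusp1 149, Fos 81.4, Ier2 74.8, Fosb 11.5, Fosl2 1.70 and Atf3 0.637, and there only Ier2 and Fosb were apart. In CD8 controls the TPM order was Junb 447, Jund 425, Dusp1 287, Ier2 207, Jun 152, Fos 82.2, Fosl2 63.8, Fosb 18.7 and Atf3 0.924, with Fosl2 apart from Fosb and Fosb apart from Atf3. In CD8 cKO it was Junb 626, Jund 403, Dusp1 346, Ier2 212, Fos 174, Jun 157, Fosl2 67.6, Fosb 42.7 and Atf3 0.264 TPM, and only Fosb and Atf3 did not overlap. All other neighbours in these orders overlapped over the libraries. Summed over the 9 members, TPM was 367 and 413 in the DP samples numbered 1 against 1298 to 2112 in the other 4, and in CD8 it was 1207 to 2361 in 9 libraries against 3729 in the library labelled cKO replicate 4.

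The comparison of cKO with control in DP asks whether the members respond to loss of Tox4 at this stage. None did so beyond the spread between libraries when same-numbered samples were not paired. With pairs 0 of 8 were called either, and 5 of 8 had an unadjusted edgeR p under 0.05, against 16.5% of all genes. The larger difference lay between the samples numbered 1 and the other 4, in both genotypes. Fos, the founding member of its family, stood at 15.8, 111 and 197 CPM in control replicates 1, 2 and 3 and at 16.8, 64.3 and 102 CPM in cKO replicates 1, 2 and 3. Replicate 1 was the low sample in each genotype, and the groups overlapped. Fosb, its close relative, stood at 4.10, 25.8 and 69.7 CPM in the controls and at 2.55, 18.9 and 24.9 CPM in cKO. Its control replicate 3 was high and both samples numbered 1 were low, with cKO replicate 1 below all controls. Fosl2, which lacks the strong activation domain of Fos, was low in all DP libraries, at 4.38, 6.13 and 6.76 CPM in control and 1.59, 5.08 and 3.75 CPM in cKO. Here 2 of 3 cKO libraries lay below all controls, and cKO replicate 2 fell within their range.

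Jun, which can form AP-1 with or without a Fos partner, stood at 40.6, 436 and 623 CPM in DP control replicates 1 to 3 and at 45.9, 391 and 489 CPM in cKO. Both replicates 1 lay far below the other DP libraries, and the genotypes overlapped. Junb, a weaker activator than Jun, was at 41.7, 269 and 291 CPM in control and 56.0, 164 and 211 CPM in cKO. Again the replicates 1 were low, and cKO replicates 2 and 3 lay below control replicates 2 and 3. Jund, the Jun gene least dependent on stimulation, was at 112, 308 and 297 CPM in control and 151, 266 and 436 CPM in cKO, with cKO replicate 3 the highest of the 6.

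Ier2, which encodes a nuclear protein induced with Fos, was at 30.3, 60.5 and 61.6 CPM in DP control and 25.7, 43.8 and 50.2 CPM in cKO. Dusp1, the MAP kinase phosphatase, was at 28.01, 165 and 242 CPM in control and 27.1, 136 and 143 CPM in cKO. For both genes replicate 1 was low in each genotype, cKO replicate 1 lay below all controls and the groups overlapped. Atf3, a stress-induced factor of the ATF family, had 0 to 19 counts over all 16 libraries and was at 0, 0.995 and 0 CPM in DP control and 0.0911, 0.977 and 0.232 CPM in cKO. A count of 0, which 5 of the 16 libraries had, allows a level of up to 0.171 to 0.353 CPM by counting error alone. Atf3 was too low for the tests within each cell type.

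**Figure D2:**
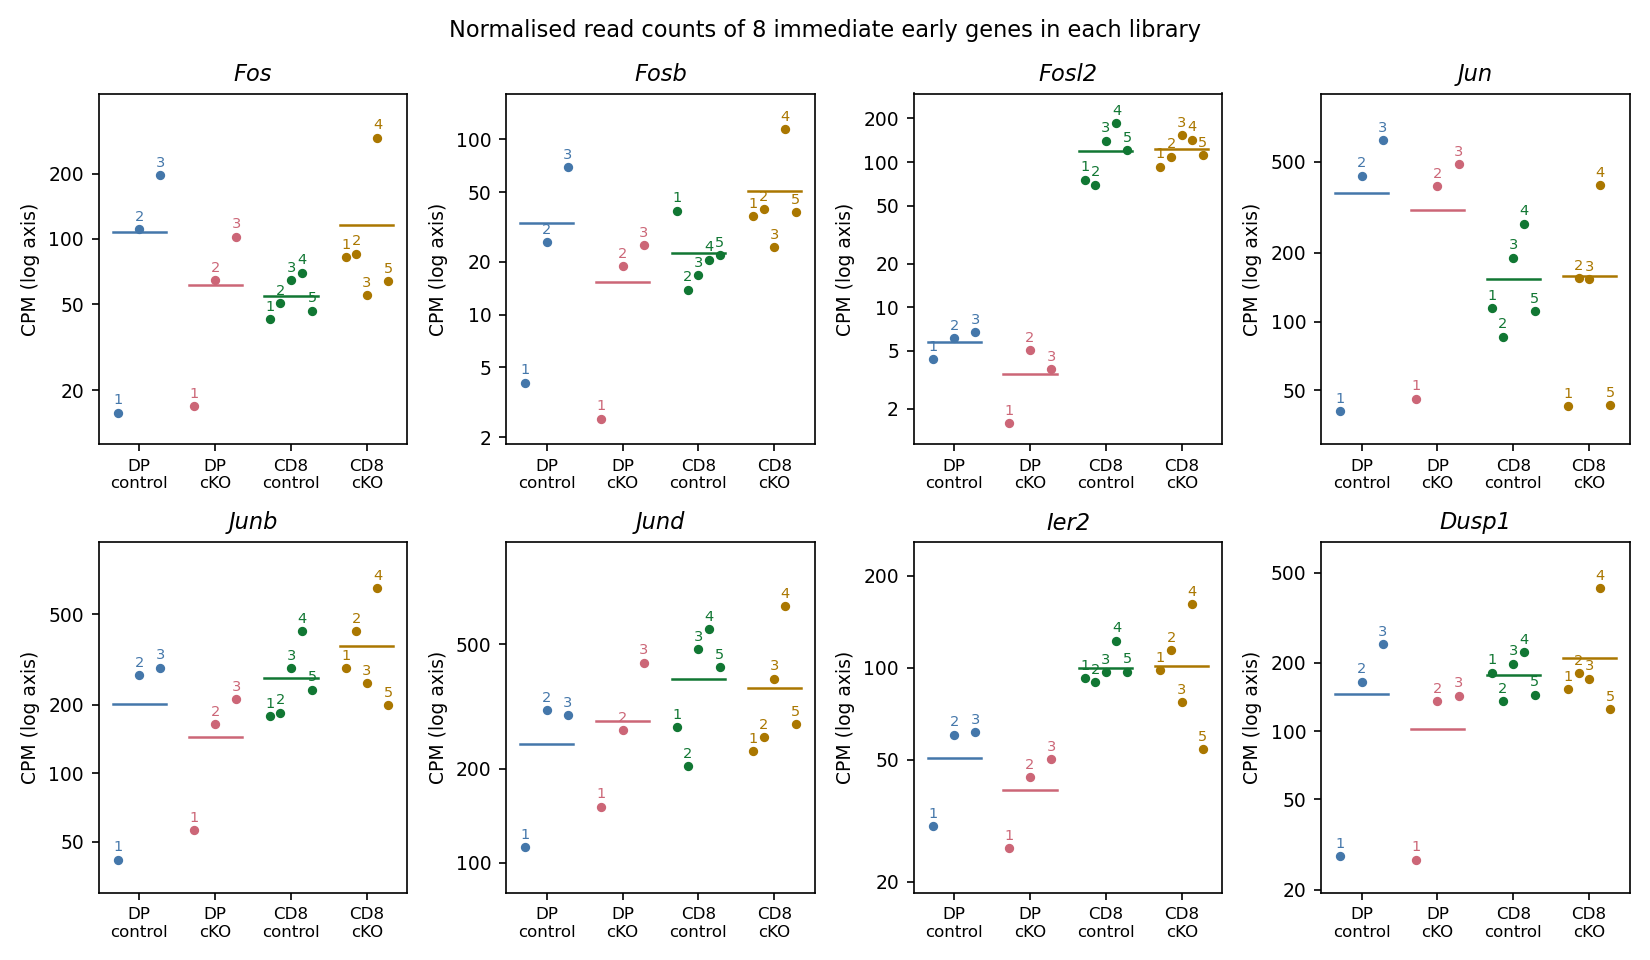
CPM of 8 members in each library (log axis, 1 panel per gene), with points for libraries, digits for replicate numbers and bars for group means. Replicate 1 is the lowest library of each DP group for all 8 genes shown, and in CD8 cKO the library labelled replicate 4 is high.

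Of the 8 members tested in DP, 0 were called by edgeR's quasi-likelihood test, against 17 of 11748 genes (0.145%). Genes were called when the adjusted p was below 0.05, the groups differed 1.5-fold or more and mean TPM reached 1. At an unadjusted p under 0.05 the count of members was also 0, against 1079 genes in all, and DESeq2 called 0 members. The estimates were 7 lower and 1 higher in cKO, with a median log2 fold change of −0.50 against −0.0011 over all genes tested. Fosb had the lowest estimate (log2 fold change −1.11, SE 0.91, edgeR adjusted p = 0.789, 1 of 3 cKO libraries below all controls). For Fos the estimate was −0.82 (SE 0.79, edgeR adjusted p = 0.833) and for Fosl2 −0.74 (SE 0.40, edgeR adjusted p = 0.636). Jun, Junb, Ier2 and Dusp1 had log2 fold changes of −0.25, −0.49, −0.35 and −0.51, and Jund of 0.24. The groups did not overlap for 0 of 8 members, against 14.7% of all genes. With 3 samples against 3 an exact permutation test, 2-sided, cannot give a p below 0.1, and the members gave 0.2 to 0.9.

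These DP estimates rested on single libraries. Without control replicate 3 the log2 fold change of Fos was −0.06, of Fosb 0.03, of Jun 0.37 and of Dusp1 0.07. Without control replicate 1 the estimates were larger, at −1.34 for Fos, −1.64 for Fosb, −0.97 for Junb, −0.79 for Jun and −1.01 for Dusp1. Without cKO replicate 3 they were −1.39 for Fos, −1.63 for Fosb, −0.84 for Junb, −0.72 for Jun and −0.81 for Dusp1. Jun was higher without cKO replicate 1, at 0.26, and Jund was lower without control replicate 1 (−0.10) or cKO replicate 3 (−0.18). Leaving out any 1 of the 6 libraries gave 0 members called and 0 to 8 genes called in all. Without both samples numbered 1, an alternative chosen after their low levels were seen, Fos was at −0.89 (edgeR adjusted p = 0.0855), Junb at −0.58 (0.0886) and Fosb at −1.12 (0.104), with 0 members and 72 genes called. Over all alternatives the edgeR or DESeq2 adjusted p ranged from 0.0855 to 0.988 for Fos, 0.0886 to 0.9999 for Junb and 0.0733 to 0.992 for Fosb.

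In DP same-numbered samples of both genotypes were compared as pairs, since their deviations from the group means correlated at 0.12 to 0.64 over all genes. Only 2 of 6 samples, both numbered 1, correlated best with their own number, so numbers 2 and 3 are less clearly pairs. Within pairs 1, 2 and 3 the log2 difference of cKO minus control was −0.66, −0.45 and −1.48 for Fosb, −1.38, −0.26 and −0.83 for Fosl2, −0.23, −0.46 and −0.29 for Ier2 and −0.05, −0.29 and −0.76 for Dusp1. Those 4 of 8 members were lower in all 3 pairs, against 19.8% of all genes. The sum of mature single-positive markers was lower in all 3 pairs too. It was 369, 350 and 325 CPM in control and 297, 301 and 303 CPM in cKO. Fos was at 0.09, −0.79 and −0.94 and Junb at 0.43, −0.71 and −0.46, so that pair 1 differed in sign from the others. In pair 1 the median difference over the 8 members was 0.02, in pair 2 it was −0.37 with 8 of 8 lower, and in pair 3 it was −0.61 with 7 of 8 lower. The corresponding medians over all genes were 0.0041, −0.020 and 0.024. Taking the pair as a block in edgeR left 0 of 8 members called, while the number of genes called in all went from 17 to 131. At an unadjusted p under 0.05 the block gave 5 of 8 members, Fos, Fosb, Fosl2, Ier2 and Dusp1, against 1941 of 11748 genes (16.5%), where without it there were 0 members and 1079 genes. The lowest of these p was that of Fosb (log2 difference −0.92, SE 0.21, edgeR adjusted p = 0.0733). The SD of the pair differences had a median of 0.48 over the members and 0.21 over all genes.

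The low level of the samples numbered 1 was the widest difference among the DP libraries. For 7 of 8 members, all but Fosl2, both lay below each of the other 4 samples, against 16.9% of all genes. Members deviated from the DP mean by a median of −1.70 in control replicate 1 and −1.54 in cKO replicate 1 on the log2 scale, and by 0.27 to 1.25 in the other 4 libraries, whereas all genes together deviated by −0.020 to 0.045. The total counts of the samples numbered 1, 16524506 and 21154634, lay within the range of the other DP libraries, as did their numbers of genes detected, 14252 and 14534. Their DP marker sums were 18181 CPM in control, the highest of the 6, and 16370 CPM in cKO. Phagocyte and granulocyte markers, in which Cd74 led, summed to 99.6 and 60.9 CPM in these samples and to 72.1 to 195 CPM in the other 4, and their part in the difference was not tested. No label separates the samples numbered 1 from the others by date, batch or sex, and what set them apart was not tested.

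The comparison of cKO with control in CD8 puts the same question to the later stage, with 5 libraries a group. Fos and Fosb had higher estimates in cKO without passing the test over all genes, and the library labelled cKO replicate 4 held the highest level of 7 members. Fos stood at 42.6, 50.4, 64.4, 69.9 and 46.7 CPM in CD8 control replicates 1 to 5 and at 82.3, 85.6, 55.03, 294 and 63.8 CPM in cKO replicates 1 to 5. Replicates 1, 2 and 4 of cKO lay above all controls, and replicates 3 and 5 fell within their range. Fosb was at 39.2, 13.9, 16.7, 20.6 and 21.9 CPM in control and 36.6, 39.9, 24.3, 114 and 38.4 CPM in cKO. Control replicate 1, the library with many more genes detected, was the high control, and only cKO replicates 2 and 4 exceeded it. Fosl2 was at 75.9, 70.1, 141, 186 and 121 CPM in control and 93.1, 109, 154, 143 and 112 CPM in cKO, with every cKO library inside the control range. Control replicates 1 and 2, low in Fosl2, were the controls with the higher Cd4 levels, 61.6 and 66.4 CPM against 3.67 to 10.5 CPM. Their sums of mature single-positive markers were lower, 3266 and 2793 CPM against 3919 to 4785 CPM. Whether these differences in markers had a part in Fosl2 was not tested.

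Among the Jun genes, Jun was at 115, 85.8, 190, 268 and 111 CPM in CD8 control and at 42.5, 155, 153, 397 and 43.1 CPM in cKO. The cKO libraries spread to both sides, with replicates 1 and 5 below all controls and replicate 4 above. Junb was at 178, 184, 290, 420 and 233 CPM in control and 289, 420, 249, 649 and 199 CPM in cKO, where replicates 2 and 4 were the highest. Jund was at 272, 204, 482, 558 and 423 CPM in control and 228, 252, 388, 663 and 278 CPM in cKO. Control replicates 1 and 2 were low here as well, and only cKO replicate 4 lay outside the control range. Ier2 was at 92.5, 89.6, 96.7, 123 and 97.0 CPM in control and 98.2, 114, 77.2, 161 and 54.3 CPM in cKO, a tight control group inside a wider cKO group. Dusp1 was at 181, 136, 198, 223 and 145 CPM in control and 154, 180, 171, 427 and 125 CPM in cKO, with replicate 4 the single high library. Atf3 was at 1.10, 0, 0.204, 1.04 and 0.598 CPM in control and 0.0873, 0.259, 0.456, 0 and 0 CPM in cKO.

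In CD8 the edgeR test called 0 of 8 members, against 11 of 11227 genes (0.0980%), and DESeq2 called 0. At an unadjusted p under 0.05 there were 2 members, Fos and Fosb, against 629 genes in all. Fosb had a log2 fold change of 1.18 (SE 0.37, edgeR adjusted p = 0.483) and Fos of 1.08 (SE 0.38, edgeR adjusted p = 0.621). The exact permutation test of single genes, 2-sided with a smallest possible p of 0.00794, gave 0.0317 for Fosb and 0.0556 for Fos, unadjusted for the 9 members tested. Junb and Dusp1 had log2 fold changes of 0.47 and 0.26, and Fosl2, Jun, Ier2 and Jund of 0.05, 0.04, 0.02 and −0.09. The median over the members was 0.15 against −0.0060 over all genes tested, with 7 estimates higher and 1 lower. No member had groups that did not overlap, 0 of 8 against 1.51% of all genes.

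Without the library labelled cKO replicate 4, whose Tox4 level was above all controls, Fos had a log2 fold change of 0.39 (edgeR adjusted p = 0.798) and Fosb of 0.64 (edgeR adjusted p = 0.740). Jun then stood at −0.64, Jund at −0.43, Ier2 at −0.21, Dusp1 at −0.16, Fosl2 at −0.02 and Junb at 0.15, so that 5 of the 8 members had lower estimates in cKO. The number of genes called in all was 20 without it, 4 without control replicate 3, 6 without control replicate 5 and 7 without cKO replicate 3. Without control replicate 1 the log2 fold change of Fosb was 1.47 (edgeR adjusted p = 0.217) and that of Fos 1.01 (edgeR adjusted p = 0.727), and without both CD8 samples numbered 1 they were 1.57 and 1.11, with 5 genes called in all. Over all alternatives the adjusted p ranged from 0.1301 to 0.941 for Fosb and from 0.171 to 0.998 for Fos. The permutation p of Fosb was 0.0635 without any 1 of cKO replicates 2 and 4 or control replicates 2 to 5, and that of Fos was 0.0476 without cKO replicate 3 or 5 or control replicate 4.

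For 7 of 8 members, all but Fosl2, the library labelled cKO replicate 4 lay above each of the other 9 CD8 libraries, against 16.1% of all genes. Its median deviation from the CD8 mean over the members was 1.21 on the log2 scale, against −0.59 to 0.45 in the other 9 libraries and 0.0028 over all genes in the same library. It had 8894000 counts and 13788 genes detected, both within the range of the other libraries, and the highest sum of mature single-positive markers, 5127 CPM. One of those markers, Cd69, is also on the list of other rapid response genes and was highest in this library. Beside these values stood its Tox4 level above all controls. Their part in its high levels was not tested.

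**Figure D3:**
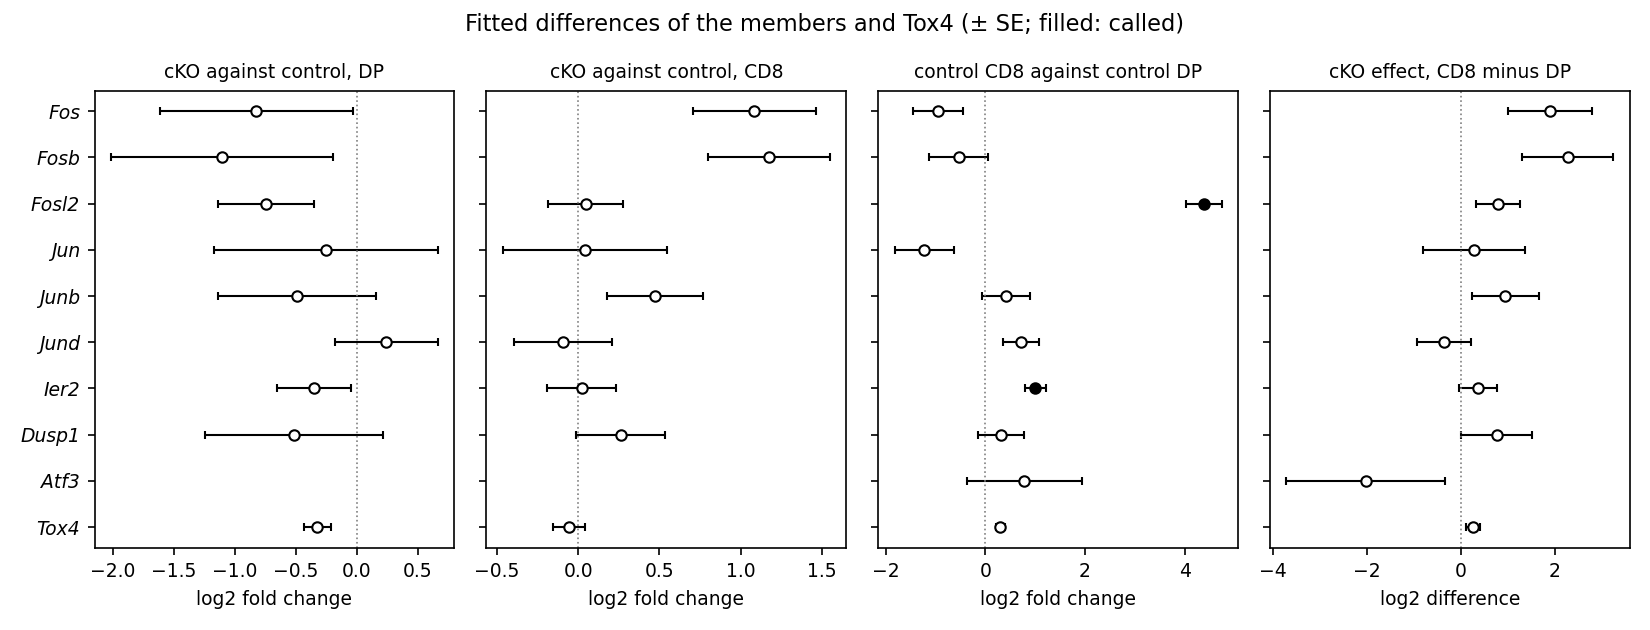
Fitted log2 differences with SE (x axes) of the 9 members and Tox4 in 4 comparisons, where filled points passed the test. Fosl2 and Ier2 are the only members called, both between control CD8 and control DP cells, and Atf3 is missing where it was not tested.

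Control CD8 cells were compared with control DP cells to describe the members over development. Each cell type came in a count table of its own, so cell type and table cannot be told apart, and the controls are those used above. Of 9 members tested 2 were called by edgeR, against 5213 of 11758 genes (44.3%), and DESeq2 called 2. Fosl2 rose from 5.76 ± 1.23 CPM in DP (SD, n = 3) to 119 ± 48.0 CPM in CD8 (SD, n = 5), with a fitted log2 difference of 4.39 (SE 0.36, edgeR adjusted p = 9.61e-07), and was higher in 5 of 5 CD8 libraries than in any DP control. Ier2 rose from 50.8 ± 17.7 CPM (SD, n = 3) to 99.7 ± 13.2 CPM (SD, n = 5), with a fitted log2 difference of 0.999 (SE 0.21, edgeR adjusted p = 0.00154), again in 5 of 5 libraries. These were the 2 of 9 members whose groups did not overlap, against 56.9% of all genes. Both had an exact permutation p of 0.0357, 2-sided, the smallest that 5 against 3 allows, and of 0.0571 or 0.0952 with 1 CD8 or 1 DP library left out, again the smallest possible.

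The remaining 7 members overlapped between the cell types and were not called. Jun had a log2 fold change of −1.23 (SE 0.60, edgeR adjusted p = 0.0961), Fos of −0.95 (SE 0.51, edgeR adjusted p = 0.126) and Jund of 0.72 (SE 0.36, edgeR adjusted p = 0.103). Fosb, Junb, Dusp1 and Atf3 were at −0.54, 0.40, 0.31 and 0.78. Atf3, with at most 19 counts in a library, was at 0.23 without DP control replicate 1 or 3. Without replicate 2 both remaining DP controls had 0 counts of Atf3 and the fit gave 5.92 (edgeR adjusted p = 0.0299, up to 0.885 over all alternatives), and it was not called because its mean TPM was under 1. The median over the 9 members was 0.40 against −0.011 over all genes. Several of these turned on DP control replicates 1 and 3. Without replicate 1 there were 5 members among the 5281 genes called, including Fos at −1.47 (edgeR adjusted p = 0.00029), Fosb at −1.07 (edgeR adjusted p = 0.0399) and Jun at −1.76 (edgeR adjusted p = 0.00158), while Junb and Dusp1 were at −0.08 and −0.18. Without DP control replicate 3 Fos was at −0.19 (edgeR adjusted p = 0.782), Jun at −0.60 (edgeR adjusted p = 0.463) and Fosb at 0.61. Without CD8 control replicate 2 Jund was called at 0.89 (edgeR adjusted p = 0.0383), for 3 members in all, and with no filter on low counts Jun was called at −1.24 (edgeR adjusted p = 0.0397). Over all alternatives the adjusted p ranged from 0.00029 to 0.782 for Fos, 0.0399 to 0.921 for Fosb, 0.00158 to 0.463 for Jun and 0.0383 to 0.334 for Jund.

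Whether the cKO effect differed between CD8 and DP was tested as an interaction, since the separate comparisons do not answer it. It called 0 of 9 members by edgeR's adjusted p, against 13 of 12131 genes (0.107%), and DESeq2 called 0 members. At an unadjusted p under 0.05 there were 2 members against 639 genes in all. Fosb differed by 2.28 on the log2 scale (SE 0.97, edgeR adjusted p = 0.880) and Fos by 1.899 (SE 0.89, edgeR adjusted p = 0.936), CD8 minus DP. The other 7 ranged from −2.02 for Atf3, a gene with few counts, to 0.95 for Junb. Without the library labelled CD8 cKO replicate 4 Fosb differed by 1.74 and Fos by 1.21, and without DP control replicate 3 both differed by 1.14. The count over all genes was 0 to 11 when any 1 of the 16 libraries was left out, and 0 members were called each time.

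Within groups most members varied more between libraries than the median gene, to an extent that rested on single libraries. In DP control the SD of log2 CPM had a median of 1.62 over 8 members and 0.19 over the 11744 genes tested, and in DP cKO 1.18 against 0.21. The corresponding medians in CD8 were 0.54 against 0.22 in control and 0.68 against 0.23 in cKO, over 11227 genes. Among the 10% of genes with the highest SD were 7 of 8 members in DP control, 7 in DP cKO, 4 in CD8 control and 7 in CD8 cKO. Without replicate 1 the count was 2 in DP control and 2 in DP cKO, and without the library labelled replicate 4 it was 1 in CD8 cKO. In CD8 control the count was 2 without replicate 2 or without replicate 4. Jun had an SD of 2.14 in DP control, exceeded by 4 of 11744 genes (0.0341%), and of 1.38 in CD8 cKO, exceeded by 29 genes (0.258%). Fosb followed in DP control at 2.05, Fos at 1.902, Dusp1 at 1.66 and Junb at 1.58. Fosl2 at 0.32 was the least variable member in DP control, and Ier2 at 0.18 in CD8 control, the latter below the median of all genes.

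Without the samples numbered 1, left out after their low levels were seen, the median SD over members was 0.23 against 0.12 over all genes in DP control and 0.27 against 0.17 in DP cKO. Above the median of all genes then lay 4 of 8 members in DP control and 6 in DP cKO, where with all libraries 8 did in each group. These values rest on 2 libraries a group. Without another library in their place it was 1.24 to 2.09 over the members and 0.16 to 0.19 over all genes. In CD8 cKO it was 0.33 against 0.20 without the library labelled replicate 4. In CD8 control it was 0.43 against 0.17 without replicate 1 and 0.40 to 0.62 over all libraries left out in turn. In CD8, where the numbers are not shown to pair samples, 0 of 8 members were lower or higher in cKO in all 5 same-numbered differences.

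**Figure D4:**
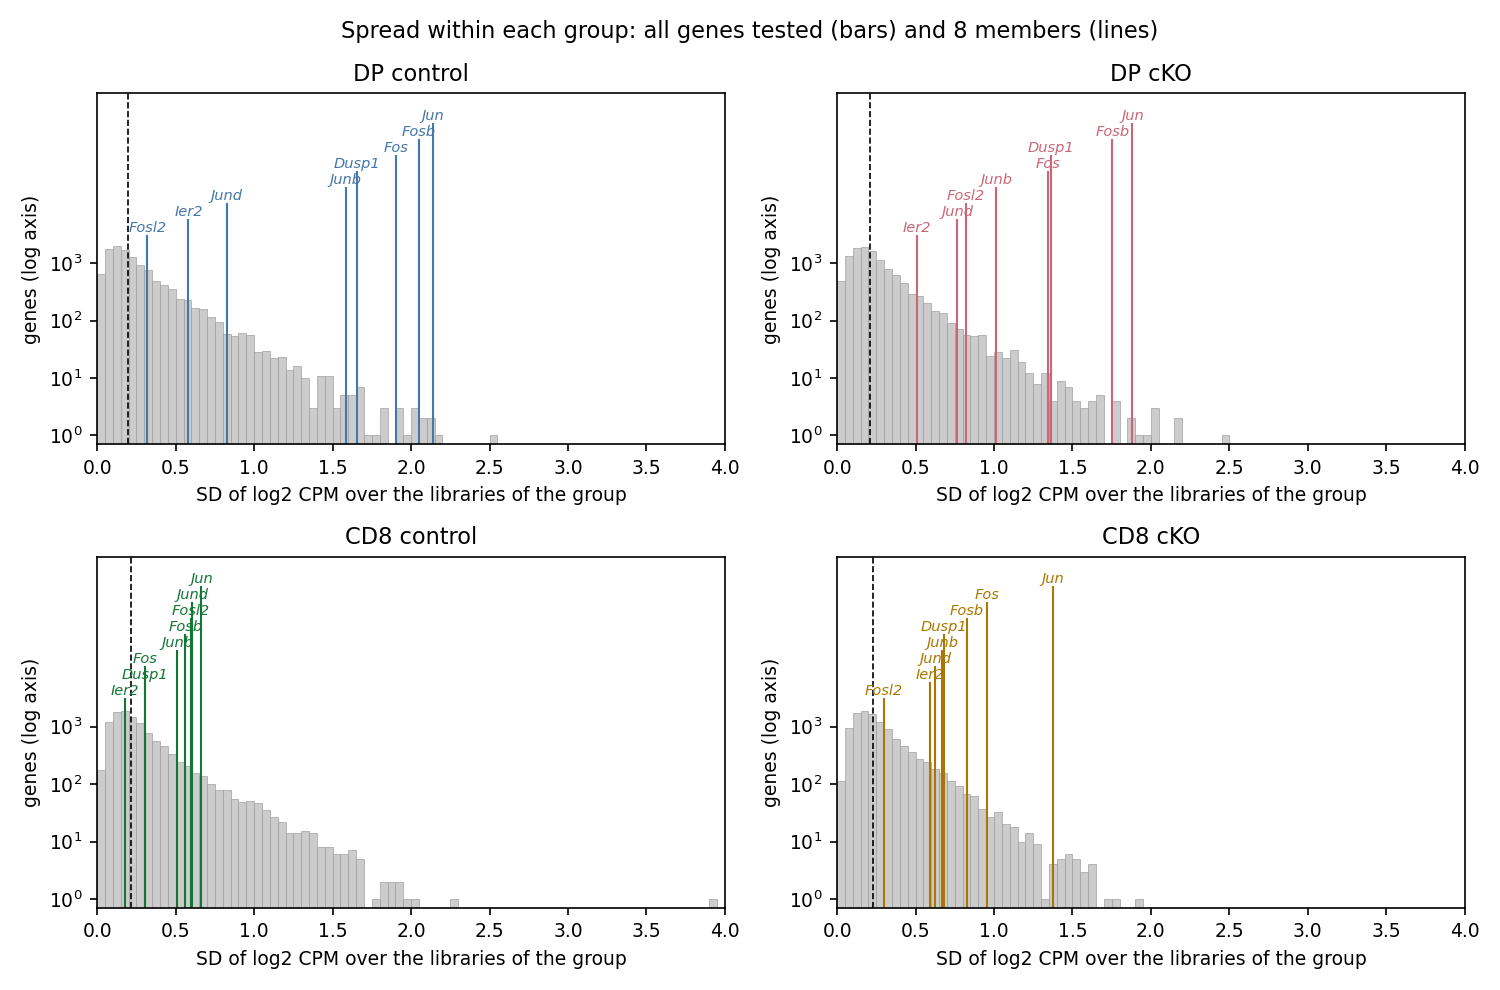
Distribution over all genes tested of the SD of log2 CPM among the libraries of each group (bars, number of genes on a log axis), with the SD of 8 members as labelled lines and the median of all genes dashed. Members of the DP groups reach the far end of the distribution, with Jun at 2.14 in DP control.

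Other genes of the pathway were described by 4 lists. Of 28 other AP-1 and related leucine zipper genes, 22 were tested in each cell type and 0 were called in DP or CD8 by edgeR, with 3 at an unadjusted p under 0.05 in each, and DESeq2 called 1 in DP and 0 in CD8. Their median log2 fold change was −0.13 in DP and −0.03 in CD8, beside −0.0011 and −0.0060 over all genes. Atf4, the most abundant of them per length, was at 242 ± 99.8 CPM in DP control and 209 ± 63.2 CPM in DP cKO (SD, n = 3). Between control CD8 and control DP 9 of 22 were called, 4 higher and 5 lower, where 44.3% of all genes were called. Bach2, a repressor that competes with AP-1 at its sites, rose by a log2 fold change of 3.02 (edgeR adjusted p = 5.49e-09), and Batf, a partner of Jun proteins, by 1.12 (edgeR adjusted p = 0.0139, 0.0540 without DP control replicate 3 and 0.00134 to 0.137 over all alternatives). Bach1 fell by 1.48 on the log2 scale and Atf5 by 0.92. Without DP control replicate 1 Atf4 was called as well, at −0.81 (edgeR adjusted p = 0.000174).

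Of 45 other rapid response genes in the tables, 43 were tested in DP and 1 was called by edgeR, with 9 at an unadjusted p under 0.05 against 9.18% of all genes. Myc, the growth factor-induced regulator of cell growth, rose from 37.8 ± 2.70 to 74.2 ± 6.86 CPM in DP cKO (SD, n = 3 each), with a fitted log2 difference of 0.97 (SE 0.13, edgeR adjusted p = 0.0315) with 3 of 3 cKO libraries above all controls. The call was lost without any 1 of the 3 controls or of cKO replicates 2 and 3, with edgeR adjusted p of 0.0780 to 0.208. The log2 fold change was 0.91 to 1.05 with any 1 library left out. Over all alternatives the edgeR or DESeq2 adjusted p ranged from 1.24e-07 to 0.208. Nfkbia, the most abundant per length, was at 488 ± 218 CPM in control and 357 ± 121 CPM in cKO (SD, n = 3 each). As for the members, most estimates in the list were lower in DP cKO, 35 of 43 with a median of −0.28. Beside this, mature single-positive markers summed to 325 to 369 CPM in DP control and 297 to 303 CPM in DP cKO. The part of these markers in the list was not tested, and Klf2 and Cd69 belong to both. With the pairs as a block 6 of the list were called and 131 genes in all, with DESeq2 4 and 160, and without both samples numbered 1 the counts were 5 and 72. In CD8 0 of 42 were called by edgeR, with 3 at an unadjusted p under 0.05 and 0 by DESeq2, and a median of 0.0087. The most abundant per length there was the RNA-binding Zfp36l1, at 1039 ± 294 CPM in control and 935 ± 224 CPM in cKO (SD, n = 5 each). Between control CD8 and control DP 26 of 42 were called against 44.3% of all genes, 18 higher and 8 lower, among them Klf2, a regulator of thymic exit, at 6.24 (edgeR adjusted p = 6.99e-07), Rgs1 at 3.22, Egr3 at 3.13, Myc at 2.84 and Ier5l at 2.62. Ier5l overlapped between the cell types, and its edgeR adjusted p was 0.00883. Over all alternatives the edgeR or DESeq2 adjusted p was 0.00113 to 0.108, and the call was lost with the replicate block. Same-numbered DP and CD8 controls correlated at −0.012, −0.13 and 0.049 over all genes, so that their numbers are not shown to pair them.

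Of 25 tested genes for SRF, its ternary complex partners and the MAP kinases, 0 were called by edgeR or DESeq2 in DP and 0 in CD8, with 1 in each at an unadjusted p under 0.05 and medians of −0.10 and 0.03. Elk4, the most abundant per length, was at 291 ± 53.0 CPM in DP control and 680 ± 194 CPM in CD8 control, where it rose by a log2 fold change of 1.25 (edgeR adjusted p = 0.000363). Between the cell types 13 of 25 were called against 44.3% of all genes, 9 higher and 4 lower, with Rps6ka1 at 1.69, Mrtfa at 1.34, Elk3 at 1.09 and Rps6ka5 at −1.06. Of 15 heat shock genes tested 0 were called by edgeR in DP or CD8, with 0 and 3 at an unadjusted p under 0.05, and DESeq2 called 0 and 1. At that level lay 9.18% of all genes in DP and 5.60% in CD8, shares to set beside the counts of each list. The heat shock medians were −0.19 in DP and −0.28 in CD8, beside −0.0011 and −0.0060 over all genes, and 14 of 15 estimates were lower in CD8 cKO. By CD8 library the median deviation of this list was −0.17 to 0.57 in control and −0.66 to 0.22 in cKO, so the genotypes overlapped. The lowest was in cKO replicate 5 and the highest in control replicate 4. Between the cell types 6 of 15 were called against 44.3% of all genes, 4 higher and 2 lower, led by the inducible chaperones Hspa1a at 5.51 (SE 1.02, edgeR adjusted p = 0.000602) and Hspa1b at 5.33 (SE 0.91, edgeR adjusted p = 0.00033). Without CD8 control replicate 4, the library with the highest level of both, they were at 4.56 and 4.41 and still called. Hsph1 was at 1.70, Hspa8 at 0.92 and Dnajb4 at −0.79. In the interaction edgeR called 0 genes of each list, with 1 of 23, 4 of 43, 2 of 25 and 1 of 15 at an unadjusted p under 0.05 in the order of the lists above, against 639 of 12131 genes (5.27%). DESeq2 called 1, 1, 0 and 0 in the lists and 36 genes in all.

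By library the lists differed in how far they followed the members. In DP 29 of the 43 other rapid response genes lay below the other 4 samples in both samples numbered 1, while Btg2 and Egr2 lay above. The list had median deviations there of −0.67 in control and −0.66 in cKO on the log2 scale. Heat shock genes were lower there too, 7 of 15 with medians of −0.44 and −0.23, and the kinase list (0.0007 and −0.01) and the other leucine zipper genes (0.0037 and −0.06) had medians near 0. Of the kinase list 3 of 25 were below and 7 above, and of the other leucine zipper genes 5 of 22 below and 3 above, against 16.9% and 17.0% of all genes. In the library labelled CD8 cKO replicate 4, 17 of 42 rapid response genes were above the other 9 libraries with a median deviation of 0.39, and 10 of 25 genes of the kinase list with a median of 0.15, against 16.1% of all genes. There 3 of 22 other leucine zipper genes and 0 of 15 heat shock genes were above, with medians of −0.02 and −0.27. The highest heat shock median among CD8 libraries, 0.57, belonged to control replicate 4, where the members were at 0.45. These counts and medians are descriptions of the libraries and were given no test.

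**Figure D5:**
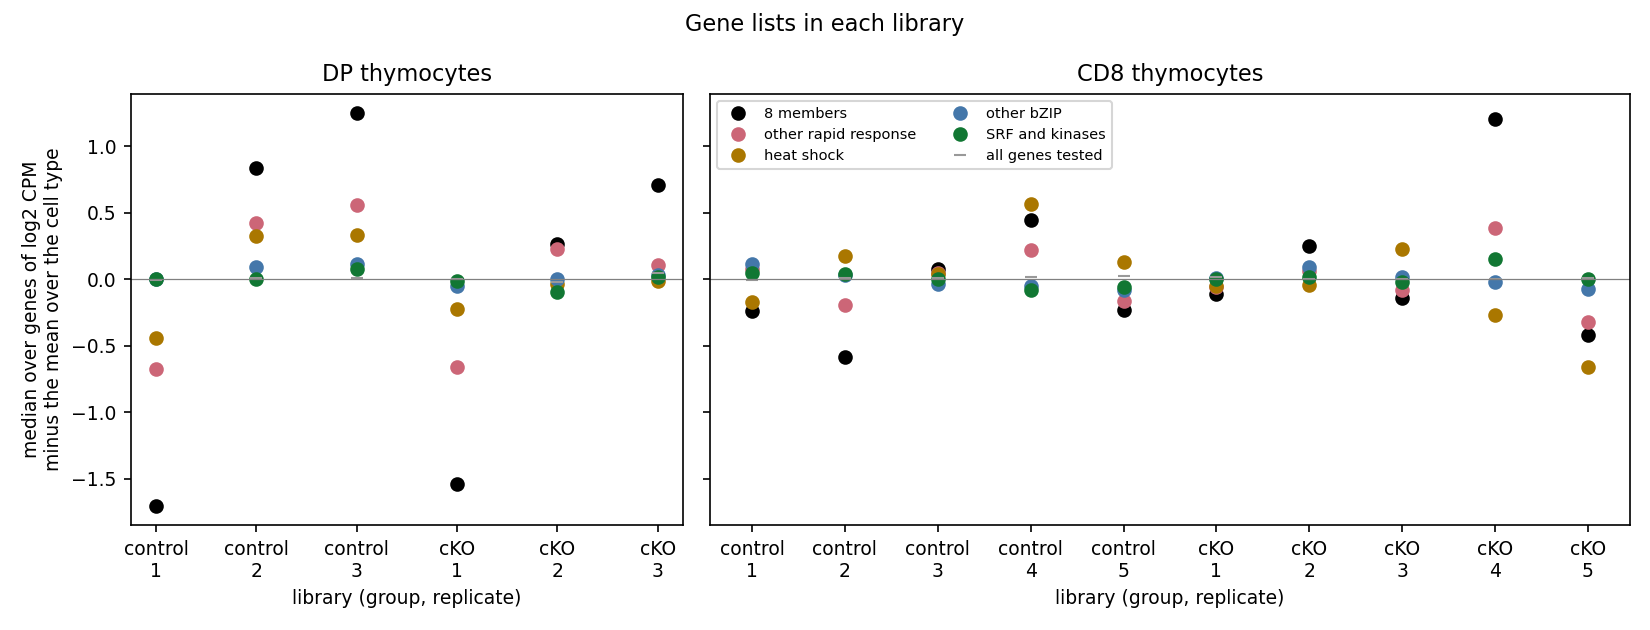
Median over the genes of each list of log2 CPM minus the mean over the cell type (y axis), for each DP and CD8 library (x axis), with 1 colour per list. Members reach −1.70 and −1.54 in the DP samples numbered 1 and 1.21 in the library labelled CD8 cKO replicate 4, while all genes stay near 0.

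The genes most like the members over the libraries were sought by the Pearson correlation of log2 CPM, less the group mean, with the mean of the members tested. In DP, over 6 samples and 9343 genes with a mean of at least 5 CPM, these were Gpd1 and Eif1 (both 0.999), Oxa1l (0.999), Zfp703 (0.999) and Dbr1 (0.998), and the median over all candidates was 0.067. With the samples numbered 1 apart from the other 4, such a value describes mainly that split. The translation factor Eif1 had 297, 509 and 571 CPM in control and 295, 462 and 487 CPM in cKO, so its range was far smaller than that of Jun. In CD8, over 10 samples and 9435 genes, they were Pttg1ip (0.959), Ppp1r15a (0.957), Pcbp2 (0.943), Csrnp1 (0.941) and Eef2 (0.938), with a median of 0.061 over all candidates. Ppp1r15a, a stress-induced phosphatase subunit, and Csrnp1 were also on the rapid response list. Ppp1r15a stood at 103, 83.0, 149, 199 and 115 CPM in control and 98.7, 177, 122, 296 and 66.4 CPM in cKO, and its highest level was again in the library labelled replicate 4. Each member compared with the mean of the others gave 0.81 for Fosl2 and 0.95 to 0.998 for the other 7 in DP, and 0.54 for Fosl2 and Fosb and 0.81 to 0.96 for the other 6 in CD8. The median over the rapid response list was 0.95 in DP and 0.60 in CD8, and that over the heat shock list 0.81 and 0.20. Over the kinase list it was 0.34 and 0.08, and over the other leucine zipper genes 0.03 and −0.0014.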

How the data were processed

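PolyA RNA of sorted mouse DP and CD8 thymocytes was sequenced in 16 libraries. The deposited values are raw fragment counts per gene, made by the authors with fastp 0.13.1, HISAT2 2.1.0 against mm10 (for CD8 the build is named in the labels only) and strand-specific featureCounts 1.6.1. The DP table also gives a deposited exonic length per gene, which was used for TPM in both cell types. From these counts edgeR 4.0.16 (R 4.3.3) computed TMM factors, a filter on low counts (filterByExpr) and the quasi-likelihood test with Benjamini-Hochberg adjustment over all genes tested. DESeq2 1.42.0 was the alternative test, and the edgeR step was tested on simulated data. Log2 CPM used a prior count of 2, and exact permutation tests and tables were made in Python 3.11.15 (numpy 2.4.6, pandas 2.3.3, scipy 1.17.1) and figures with matplotlib 3.10.9. Alternatives covered normalization, filters, thresholds, the replicate block and each library left out. The comparison of cell types shares its control samples with both comparisons of genotypes, so values are given side by side with no overlap between them.

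Same-numbered DP samples of both genotypes had correlated deviations from their group means, at 0.64, 0.12 and 0.29 for numbers 1 to 3. Other numbers had a mean of −0.17. Each same-numbered value was above the threshold of 0.1, so the numbers in the labels were taken to pair the DP samples. Only 2 of 6 samples, both numbered 1, correlated best with their own number. Control replicate 2 correlated more with cKO replicate 3 (0.324), and control replicate 3 with cKO replicate 2 (0.297 against 0.290). The members and lists were chosen with earlier results of these data known. Named genes outside the members are Tox4, in each list and comparison at most 5 called genes with the largest differences and the most abundant gene per length, and the 5 genes most like the members in each cell type. Any other gene named, such as Btg2, Egr2 and the leading markers, was chosen after its values were seen.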

Additional observations from a re-analysis of the deposited data

Results flagged for a closer look

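Of the 18 groups of 5 CD8 libraries examined, 1 per member and genotype, 4 held a library far from the other 4 by Dixon's criterion. The criterion flags about 1 in 20 groups of normally distributed values. It was applied to CPM without logs, and no share over all genes is given beside it. Ier2 in CD8 control replicate 4 was at 122.6 CPM, where the nearest library was at 97.0 CPM. The other 3 were all in the library labelled CD8 cKO replicate 4, the library whose Tox4 level was above all controls. There Fos was at 293.5 CPM against 85.6 CPM in the nearest library, Fosb at 114.3 CPM against 39.9 CPM and Dusp1 at 427.0 CPM against 179.9 CPM. The 3 values come from 1 library and are not independent of each other. That library lay above the other 9 CD8 libraries for 16.1% of all genes. Groups of 3 DP libraries were too small for this criterion.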

How the results depend on the processing

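Over all alternatives, 600 of 637 log2 fold changes of members kept direction and call, 5 gained a call and 32 changed sign, and of 675 for other named genes 628 kept both, 8 lost a call, 2 gained one and 37 changed sign. SDs of single members moved by less than their approximate standard error in 186 of 224 values. That error is the SD over the square root of 2(n − 1), for n libraries in the group. List counts kept within 1.5 times in 279 of 300. Atf3 had no value with at least 10 counts in every sample, or in the comparison of cell types without CD8 control replicate 1 or 4. The cause of the changes was not tested.

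With 1 library left out, members called numbered 0 in DP, 0 in CD8, 2 to 5 between the cell types and 0 in the interaction, and all genes called 0 to 8, 4 to 20, 4854 to 5281 and 0 to 11. In DP the log2 fold change ranged from −1.64 to 0.0342 for Fosb, −0.79 to 0.37 for Jun, −0.18 to 0.55 for Jund, −1.01 to 0.0691 for Dusp1, −0.51 to 0.0560 for Atf4 and −0.17 to 0.11 for Elk4. In CD8 it ranged from −0.0922 to 0.27 for Fosl2, −0.64 to 0.33 for Jun, −0.43 to 0.0718 for Jund, −0.21 to 0.18 for Ier2, −0.16 to 0.40 for Dusp1, −0.0772 to 0.17 for Elk4 and −0.26 to 0.00855 for Zfp36l1. Between the cell types it ranged from −1.07 to 0.61 for Fosb, −0.0789 to 0.78 for Junb and −0.18 to 0.90 for Dusp1. In the interaction it ranged from −0.40 to 0.81 for Jun, −0.69 to 0.10 for Jund, −0.27 to 0.30 for Atf4, −0.10 to 0.21 for Elk4 and −0.14 to 0.22 for Hspa8. The median SD of the members ranged from 0.231 to 2.09 in DP control, 0.268 to 1.52 in DP cKO, 0.404 to 0.617 in CD8 control and 0.332 to 0.763 in CD8 cKO.

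All genes called in DP were 160 with DESeq2, 74 with no filter, 131 with the replicate block, 41 with all 4 groups in one fit and 72 without both samples numbered 1. In CD8 they were 46 with DESeq2 and 5 without both samples numbered 1. In the interaction they were 3 with upper-quartile normalization, 36 with DESeq2, 6 without both CD8 samples numbered 1 and 0 without both DP samples numbered 1. Between the cell types 3 members were called with no filter. Without both samples numbered 1 the median SD was 0.231 in DP control and 0.268 in DP cKO. By CPM in place of TPM, 7 of 9 members kept their place in each DP group and 3 of 9 in each CD8 group. Elk4 in CD8 was at −0.00206 with upper-quartile normalization. In the interaction Atf4 was at −0.0219 with upper-quartile normalization, −0.00335 with at least 10 counts and −0.0111 without both CD8 samples numbered 1, and Hspa8 at 0.0149 with RLE, 0.0149 with DESeq2 and 0.15 without both DP samples numbered 1.

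In CD8 the numbers are not shown to pair samples, as pair 5 correlated at 0.0908, under the threshold of 0.1. Numbers 1 to 4 correlated at 0.30 to 0.37, and 5 of 10 samples correlated best with their own number. The replicate block gave 31 genes called in CD8, 4905 between the cell types and 33 in the interaction, with Jun at −0.31 and Ier2 at −0.0554 in CD8 and Jun at −0.19 and Atf4 at −0.0597 in the interaction. It changed no call of a member, and gave 3 of 8 members at an unadjusted p under 0.05 in CD8, where 8.76% of all genes had one, and 4 of 9 in the interaction, where 9.65% did.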
